A study of Mus musculus with 6 samples.

Results

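The regions described here are MafA peaks of the mouse beta cell line MIN6 that overlap the histone mark H3K4me3 and lie next to the end of a gene. A region was the union of peaks that shared at least 1 bp between the lists of both replicates, with a peak from each. A MafA region was a member when it overlapped an H3K4me3 region and its midpoint lay within 1 kb of either end of a RefSeq gene. Of 25894 MafA regions, 3766 were members, which is 14.5% (95% Wilson interval 14.1% to 15.0%). They made up 62.0% of the 6078 MafA regions on H3K4me3 and 74.7% of the 5042 MafA regions at gene ends. Without MafA replicate 1 the rule would take 6496 regions, and with equal numbers of the strongest peaks of each list 740. Members were chosen by their MafA and H3K4me3 peak calls, so the strengths of both marks are given below as a description.

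The assay was CUT&RUN, in which an antibody brings a nuclease to its target in opened cells, so that the DNA cut free around the target can be sequenced. Each of the 6 libraries came from 500000 MIN6 cells, an insulin-secreting mouse line, permeabilised with 0.01% digitonin and sequenced as 150 bp pairs. The groups were endogenous MafA, H3K4me3 as the positive control and IgG as the negative control, with 2 replicates each and no treatment. IgG files were not used here. No label says that replicates came from separate cultures, so the spread between them may be technical, and all cells are 1 line grown in culture.

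MafA is a basic leucine zipper protein of the large MAF family that activates the insulin gene and other genes of the mature beta cell. MAF proteins bind as dimers to MAF recognition elements, which join a pair of inverted TGCTGA cores, and partners of the AP-1 and CNC families use related elements. H3K4me3 is laid down around the start of active and poised genes, on the nucleosomes that flank the nucleosome-depleted start, and it is found at nearly all housekeeping promoters.

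Promoter sequences came from RefSeq (GRCm38.p6), as 1 window per gene from 250 bases before to 50 after the start, and 3125 genes with a window overlapping a member were searched on both strands. The first sequences are shown because they hold the MAF core TGCTGA, in capitals (TCAGCA is the same core on the other strand). The first pair had the highest fold enrichment among member promoters whose core lay within 50 bp of the mean MafA summit. They are Dnaja1 (a chaperone of the HSP40 family, chr4:40722218-40722260, plus strand) and Shb (a signalling adaptor, chr4:45531030-45531078, minus strand). Aldh9a1 (an aldehyde dehydrogenase; chr1:167349871-167349937, plus strand) and Cry2 (a repressor of the circadian clock; chr2:92434169-92434235, minus strand) are shown for the longer form TGCTGAC, which Shb also holds, with its last letter in lower case.
Dnaja1: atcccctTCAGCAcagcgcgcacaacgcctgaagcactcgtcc
Shb: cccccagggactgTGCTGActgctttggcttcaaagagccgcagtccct
Aldh9a1: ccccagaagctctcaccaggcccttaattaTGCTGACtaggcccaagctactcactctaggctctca
Cry2: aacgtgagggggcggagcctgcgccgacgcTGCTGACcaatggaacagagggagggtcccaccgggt

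In Dnaja1 the core began 243 bases before the start and the MafA summits lay at -216 and -187 bp from it in replicates 1 and 2, with fold enrichments of 16.1 and 14.1. In Shb the core, here also the longer form, began 237 bases before the start and the summits lay at -245 and -239 bp, with fold enrichments of 10.6 and 11.0. In Aldh9a1 the core began 90 bases before the start, while the summits lay 65 and 43 bp after it. In Cry2 it began 136 bases before the start and the summits lay 169 and 237 bp after it. The core was thus close to the summit in the first pair, which were picked for that, and on the other side of the start in the second pair.

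The next sequences are shown because they hold AP-1 sites, TGANTCA, in capitals. Both belong to genes of antioxidant defence: Srxn1, sulfiredoxin (chr2:152105392-152105515, plus strand), and Prdx1, peroxiredoxin (chr4:116685349-116685504, plus strand).
Srxn1: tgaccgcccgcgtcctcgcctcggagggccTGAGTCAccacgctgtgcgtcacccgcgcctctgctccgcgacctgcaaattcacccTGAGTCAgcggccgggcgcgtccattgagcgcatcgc
Prdx1: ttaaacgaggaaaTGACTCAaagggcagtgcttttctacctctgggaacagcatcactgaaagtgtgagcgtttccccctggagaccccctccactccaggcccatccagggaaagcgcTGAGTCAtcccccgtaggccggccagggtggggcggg

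In Srxn1 the AP-1 sites began 102 and 45 bases before the start, and the MafA summits lay 23 and 80 bp after it. Its fold enrichment was 18.4 and 15.5, with 180 and 373 fragments at the summit. In Prdx1 the sites began 237 and 131 bases before the start, and the summits lay at -261 and -185 bp, with fold enrichments of 7.16 and 7.91. A match of letters describes the window and does not show which protein was bound.

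Across the members' promoters, the MAF core was more frequent than at H3K4me3-marked promoters without a MafA region, although base composition was almost the same. Median GC content was 62.0% in the 3125 member windows and 62.7% in 6057 windows with H3K4me3 and no MafA, with a median of 22 CpG dinucleotides in both. TGCTGA was found in 17.9% of member windows (95% Wilson interval 16.6% to 19.3%) and in 11.9% of the windows with H3K4me3 alone. TGCTGAC, which contains it, was found in 5.63% (4.88% to 6.50%) and in 2.05% (1.72% to 2.44%). These intervals cover counting error only, and windows of neighbouring genes can overlap. Promoters with a MafA region and no H3K4me3 were poorer in GC, at 48.7%, and held both forms more often: TGCTGA in 33.9% and TGCTGAC in 11.6% of 387. Over all 27025 windows the shares were 19.3% and 4.60%.

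The full elements were not found in the promoter windows of members. Both MafA summits lay inside the window in 525 of the 3125, so the sequence at the summits was often not searched. Neither TGCTGANTCAGCA nor TGCTGANNTCAGCA, the complete MAF elements, occurred in any of the 3125 windows, and each occurred in 2 of all 27025 windows. The second occurred in 1 of the 387 MafA windows without H3K4me3. With so few matches in all windows, their absence from member windows says little about members. AP-1 sites, which lie inside the first of those elements, were found in 4.38% of member windows, 3.86% of windows with H3K4me3 alone and 7.91% of all windows. The core of the antioxidant response element, TGACNNNGC, which can overlap TGCTGAC and AP-1 sites, was found in 17.6% of member windows, 12.9% with H3K4me3 alone and 12.4% of all. The cyclic AMP response element TGACGTCA was found in 4.22%, 2.82% and 1.78%. The CCAAT box was found in 42.8%, 34.5% and 37.8%, and the GC box GGGCGG in 70.2%, 67.6% and 35.6%.

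**Figure D1:**
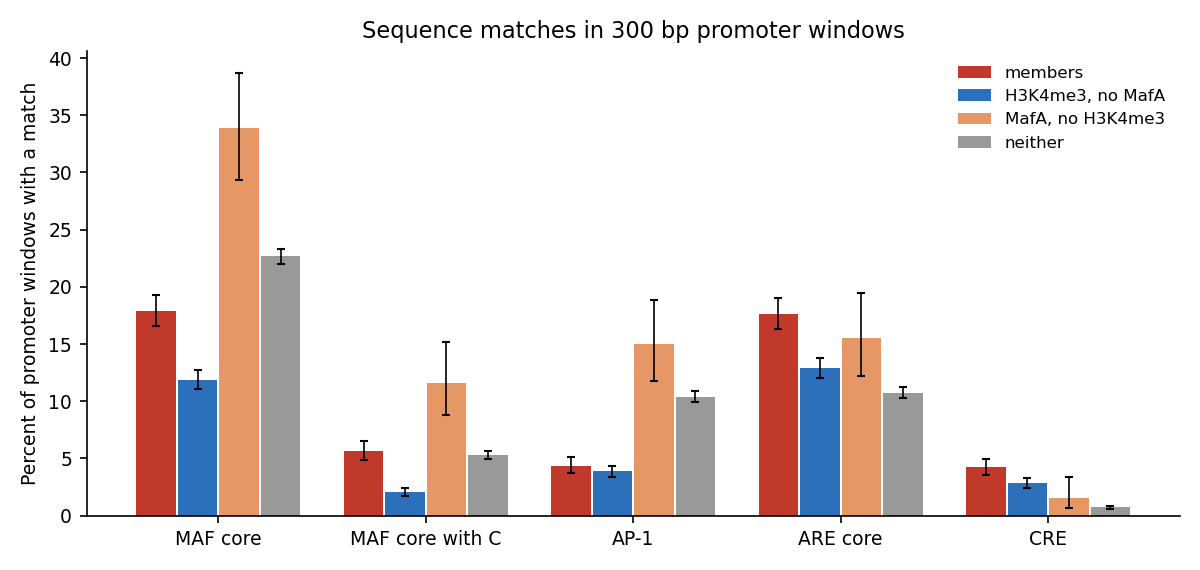
Percent of 300 bp promoter windows (y axis) that hold the MAF core TGCTGA, its form followed by C, the AP-1 site, the antioxidant response element core (ARE core) or the cyclic AMP response element (CRE), in 4 groups of promoters. Bars with 95% Wilson intervals; member windows lie above windows with H3K4me3 and no MafA for both MAF forms (17.9% against 11.9%, and 5.63% against 2.05%) and below MafA windows without H3K4me3.

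The MAF core TGCTGA was also more frequent in members of higher fold enrichment, whose windows were poorer in GC, but not in members with more fragments. When member windows were ranked by MafA fold enrichment and divided into 4 groups of equal size, TGCTGA was found in 13.04% of the weakest group and 22.9% of the strongest. Median GC content fell from 63.5% to 59.3% over the same groups, and its part in the shares was not tested. Ranked by fragments, a ranking added after seeing the data, the weakest group held TGCTGA in 17.9% of windows and the strongest in 17.7%. The longer form TGCTGAC was found in 4.60% and 6.27% of these groups, with Wilson intervals that overlap. By fold enrichment it was found in 4.48% of the weakest group and 8.07% of the strongest. Around the summit itself no excess was seen. In 525 windows that held both MafA summits, the core had 0.677 matches per kb within 50 bp of the mean summit, from 33 matches, and 0.858 per kb at 100 to 200 bp, from 45. The CCAAT box had 1.07 and 2.38 matches per kb and the GC box 2.913 and 6.999, with a GC content of 59.1% and 64.3%.

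Member regions were short and mostly lay within a broader H3K4me3 region. Their median width was 880 bp, with a range of 260 to 5811 bp, and 2533 of them (67.3%) lay wholly inside the H3K4me3 region. Together they touched 3720 H3K4me3 regions. In 3585 members (95.2%) each replicate gave a single peak. The median width of a MafA peak was 566 bp in replicate 1 and 847 bp in replicate 2, against 2103 and 2110 bp for the H3K4me3 peaks at the same places. The mean difference was -1400 bp, with 706.5 ± 199 for MafA and 2106.5 ± 4.95 for H3K4me3 (SD, n = 2). The libraries of both antibodies did not overlap, but 4 libraries cannot reach a two-sided exact permutation p below 0.333, which was the value found.

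Nearly all members with a known strand sat at the start of the gene. A RefSeq start was on record for the nearest gene end of 2918 members, and in 2768 of them (94.9%) the nearest end was the start and in 150 the far end. Members at far ends had a median fold enrichment of 4.65 and 4.53 in replicates 1 and 2, and those at starts 3.90 and 4.17. The nearest gene was protein-coding for 3077 members (81.7%), a long non-coding RNA for 549 (14.6%), a tRNA gene for 53 and a miRNA gene for 27. Members at tRNA genes had median fold enrichments of 3.72 and 4.02.

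Around the start, MafA summits fell on both sides and were scarce at the start itself, while H3K4me3 summits fell mainly downstream. The zones used here were drawn after the positions had been seen. Of summits within 1 kb of a start, 36.5% and 34.3% of MafA summits in replicates 1 and 2 lay 100 to 500 bp upstream. For H3K4me3 in the same members the shares were 10.2% and 10.3%. Only 3.16% and 4.23% of MafA summits, and 2.39% and 2.31% of H3K4me3 summits, lay in the 100 bp just upstream of the start. In the first 300 bp downstream lay 45.1% and 48.1% of MafA summits and 56.7% and 55.3% of H3K4me3 summits. MafA summits at unmarked gene ends also fell on both sides, so this is not particular to members. Of their 377 and 371 summits within 1 kb of a start, 29.2% and 28.6% lay in the upstream flank. The 100 bp just upstream held 4.51% and 4.58%, and the first 300 bp downstream 24.4% and 30.2%. In members MafA thus exceeded H3K4me3 by 25.1 percentage points in the upstream flank and was lower by 9.40 points downstream (-9.40). These differences are a description, since the rule placed the MafA midpoint, and not H3K4me3, within 1 kb of a gene end.

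**Figure D2:**
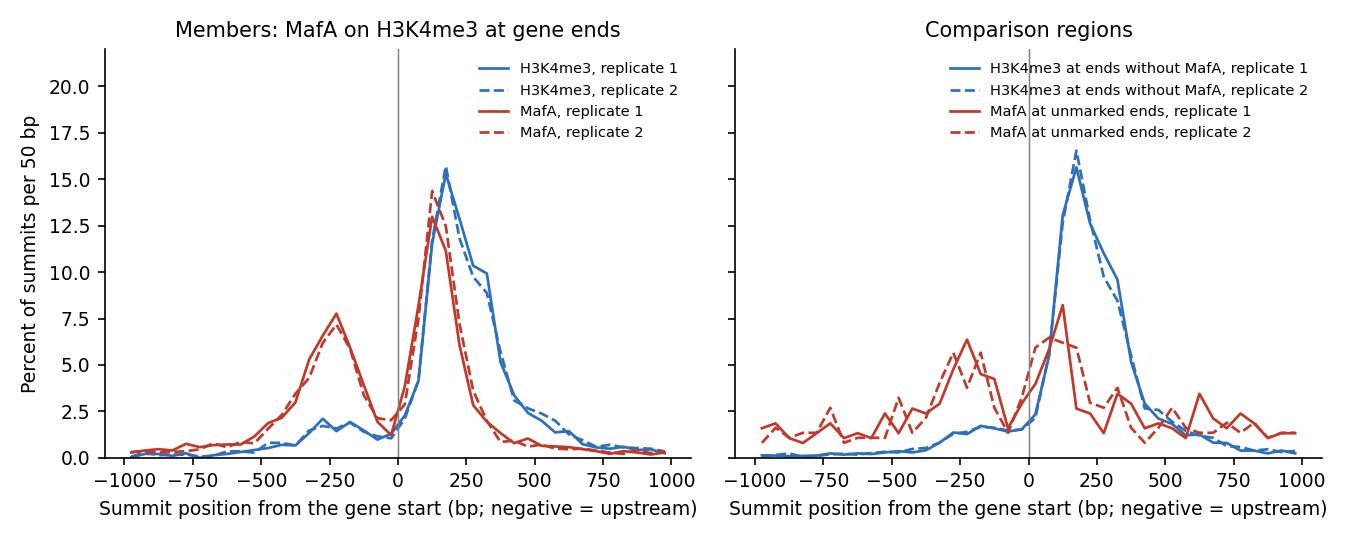
Percent of peak summits per 50 bp (y axis) by distance from the annotated gene start (x axis, bp, upstream negative), for MafA and H3K4me3 in member regions (left) and in comparison regions (right), with 1 line per replicate. In members the MafA lines have a peak on each side of the start, with 36.5% and 34.3% of summits in the upstream flank, and the H3K4me3 lines have their main peak downstream.

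The upstream and downstream summits were stable between replicates. There were 818 members with both MafA summits in the upstream flank, 80.5% of those placed there by replicate 1, and 1099 with both downstream, 87.6% of those placed there by replicate 1. Upstream members had their MafA summit 515 and 506 bp from the H3K4me3 summit, and downstream members 83 and 73 bp from it. MafA fold enrichment was 4.18 and 4.49 in the upstream group and 3.77 and 4.07 in the downstream group, with almost the same number of fragments (65 and 143 against 66 and 144). H3K4me3 fold enrichment was 19.9 and 17.6 upstream and 17.04 and 16.04 downstream. H3K4me3 regions at gene ends that had no MafA region placed 7.86% and 8.19% of their own summits in the upstream flank. Divergent gene pairs had similar shares in both sets of marked ends: 553 of 2843 members with a start (19.5%) and 1106 of 5766 marked ends without MafA (19.2%) had starts on both strands, against 9 of 403 unmarked MafA ends (2.23%).

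Distances to the nearest gene end are a description, since the rule placed the MafA midpoint, and not H3K4me3, within 1 kb of one. The median distance was 222 and 217 bp for MafA and 286 and 291 bp for H3K4me3, means of 219.5 ± 3.54 and 288.5 ± 3.54 bp (SD, n = 2). The difference was -69 bp. Gene ends in this count have no strand.

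Members had many MafA fragments, a high local background and a low fold enrichment. Fragments at the summit were recovered from each peak's fold enrichment and p-value. Median fragments were 58 and 130 in replicates 1 and 2, against 47 and 104 in 2312 MafA regions on H3K4me3 away from gene ends and 27 and 57 in 1276 MafA regions at unmarked gene ends. The order of fold enrichment was the reverse: 3.95 and 4.23 in members, 4.84 and 5.27 away from ends, and 5.79 and 6.32 at unmarked ends. The local background, in the authors' scaled pileup, was 14.7 and 23 in members, 8.42 and 13 away from ends and 3.64 and 5.82 at unmarked ends. Whether members count as weaker or stronger than other marked MafA regions therefore depends on the measure, and the part of the background in this was not tested.

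**Figure D3:**
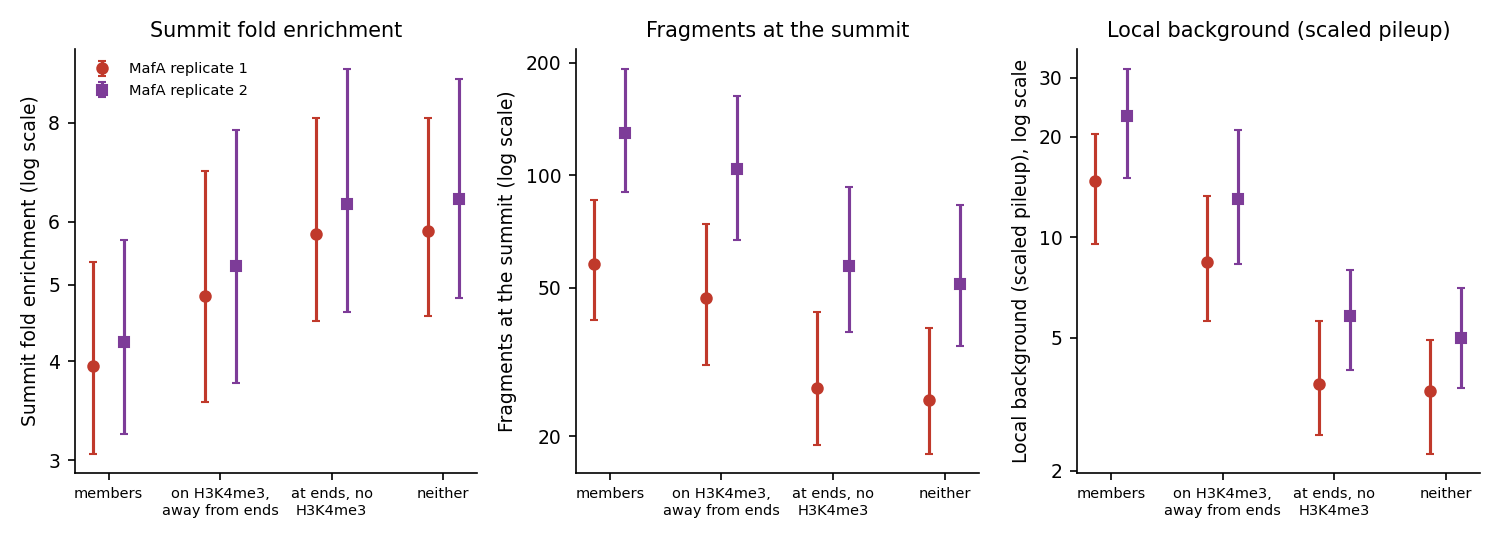
Summit fold enrichment, fragments at the summit and local background (scaled pileup) on log axes, for MafA regions in 4 classes; points are medians over regions in each MafA replicate and bars span the middle 50% of regions. Members have the lowest fold enrichment (3.95 and 4.23) and the highest fragments (58 and 130) and background.

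Within the members, fold enrichment ran from 1.64 to 38.5 in replicate 1 and from 1.59 to 37.5 in replicate 2. The middle 50% lay between 3.06 and 5.34, and between 3.23 and 5.69. Across members the replicates' fold enrichments had a Spearman correlation of 0.777 and their fragments 0.914, over 3766 regions that share their libraries and gene ends. The median difference between replicates was 0.24 on the log2 scale, 64 members differed by more than 1, and 2317 were higher in replicate 2. The replicates' summits lay a median of 39 bp apart and within 100 bp in 2811 members (74.6%), while 181 had summits over 500 bp apart. Just inside the 1 kb limit, 77 members at 900 to 1000 bp had medians of 4.48 and 4.43. Just outside it, 79 marked regions at 1000 to 1100 bp had 4.32 and 3.93.

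H3K4me3 fold enrichment was similar at marked gene ends with and without a MafA region, while fragments and widths were somewhat higher with one. Median H3K4me3 fold enrichment was 17.5 and 16.1 in regions with a member and 17.5 and 15.9 in the 7775 H3K4me3 regions at gene ends without a MafA region. Median summit fragments of these H3K4me3 regions were 1056 and 391 with a member and 983 and 361 without. Their widths were 2087 and 2097 bp with a member and 1830 and 1863 bp without. Across members the Spearman correlation of MafA with H3K4me3 was -0.16 and -0.14 for fold enrichment in replicates 1 and 2. It was 0.378 and 0.417 for fragments. The points share their libraries, and these coefficients describe 3766 regions of 4 libraries.

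Member regions lay within 1 kb of an end of 4764 genes of any type. Of 21900 protein-coding genes, 3727 (17%) had a member, and of the 12213 with an H3K4me3 region at an end, 3726 (30.5%). All but 65 of these genes had 1 member. One member could serve several genes: 460 lay at 2 or more protein-coding genes, and 443 lay at none. Without MafA replicate 1, 6347 protein-coding genes had a member. List counts without that replicate are read against this rise and not against the 30.5%. The median fold enrichment over the 3727 genes was 4.001, as the mean of both replicates, and the other counts for gene lists below are read against the 30.5%.

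Genes of insulin production and glucose sensing had strong members, with the highest median of the lists with more than 1 such gene, level with the beta cell markers, whose genes with a member are all in this list. Of their 10 H3K4me3-marked genes, 6 had a member (60%), and with G6pc2 7 of all 16 did. The median fold enrichment of these was 9.004. At Ins2, which encodes insulin (chr7:142675469-142680691), it was 14.9 and 20.8 in replicates 1 and 2, with 130 and 353 fragments. At Slc30a8, the zinc transporter of the insulin granule (chr15:52294784-52296103), it was 11.2 and 14.9. At Slc2a2, the glucose transporter GLUT2 (chr3:28694673-28700018), it was 7.54 and 10.5, and at Iapp, the amyloid peptide released with insulin (chr6:142297620-142299414), 6.51 and 9.49. These 4 were higher in replicate 2. Both MafA summits at Slc2a2, and that of replicate 2 at Iapp, lay outside the H3K4me3 region that the member overlapped.

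Other genes of the list went the other way between replicates. At G6pc2, the islet glucose-6-phosphatase (chr2:69225159-69230859), fold enrichment was 7.78 and 5.35 with 54 and 99 fragments. The member at G6pc2 touched an H3K4me3 region that covered an internal start of the gene and did not reach within 1 kb of the outer ends of the gene in the RefSeq table. Both MafA summits at G6pc2 lay outside that H3K4me3 region. Kcnj11, the pore of the ATP-sensitive potassium channel (chr7:46096066-46096694), had 5.75 and 5.25. Its partner Abcc8, and Trpm5, Glp1r and Ffar1, were marked but had no MafA region at an end. Ins1 had a MafA region at an end and no H3K4me3 region there. Under a 50% reciprocal overlap of the replicates' peaks, 2 genes of the list had a member, and 3 did with a window of 500 bp. When H3K4me3 had to cover 50% of the MafA region, 5 genes of the list had a member.

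Transcription factors of the beta cell had members near the typical strength. Of 17 marked genes 7 had one (41.2%), with a median fold enrichment of 4.62. The highest were Isl1 (chr13:116296559-116299945), with 8.18 and 8.22 at the far end of the gene, and Nkx2-2 (chr2:147194781-147195820), with 7.62 and 8.13. Foxa2, a pioneer factor of the endoderm, had 5.47 and 4.59, and Myt1 had 3.44 and 5.81. Neurod1 had 2.74 and 3.68, and Pax6 2.89 and 3.17, both in the lower part of the range of members. Pdx1, Nkx6-1, Insm1, Rfx6, Mnx1, Glis3, Hnf4a and Mafa itself were marked and had no MafA region at an end. The list's count was 12 without MafA replicate 1, where counts rose over all genes, and 4 with a 50% reciprocal overlap or a window of 500 bp.

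**Figure D4:**
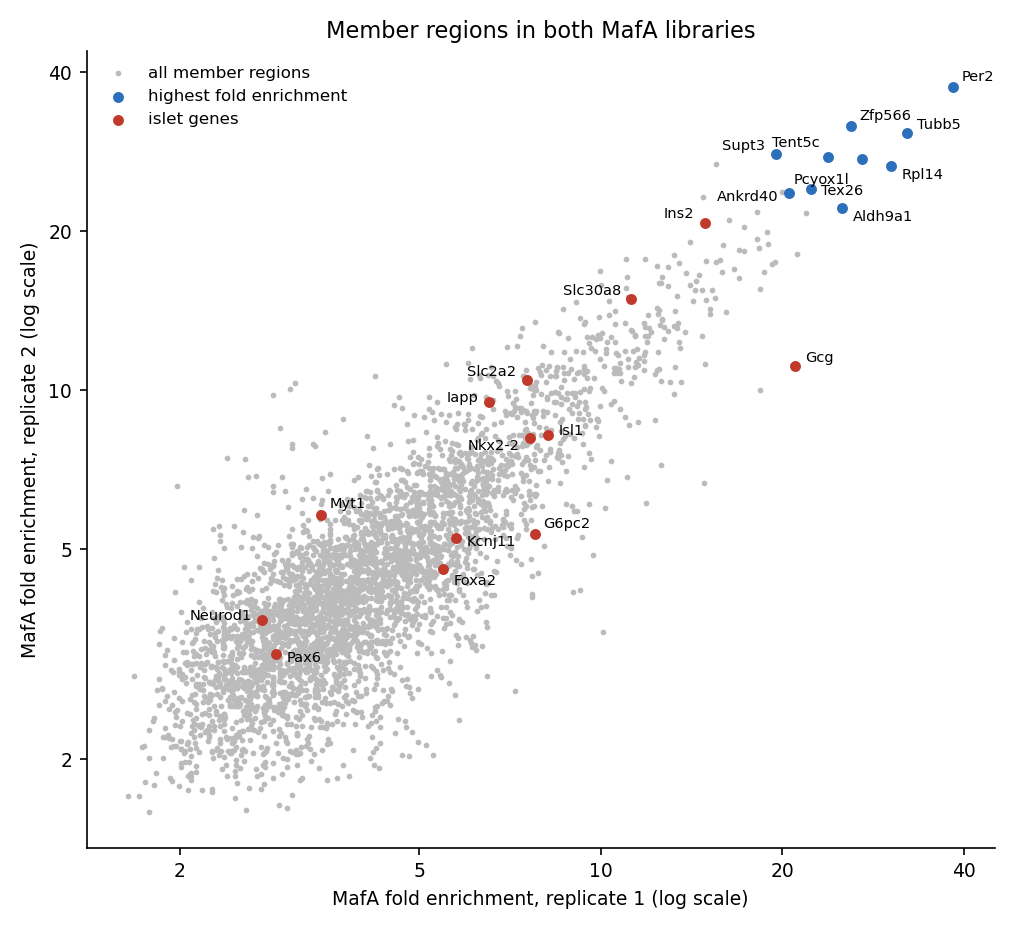
MafA fold enrichment in replicate 1 (x axis) and replicate 2 (y axis), both on log scales, for all 3766 members (grey), the 10 members with the best mean rank (blue, named by the nearest protein-coding gene) and a selection of islet genes (red). Ins2 and Slc30a8 lie high in both replicates, Gcg is higher in replicate 1, and Neurod1 and Pax6 lie in the lower part of the cloud.

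The markers of cell types gave the following counts. Among 10 beta cell markers 7 were marked, and 4 of these had a member (57.1%). With G6pc2 5 of the 10 had one, all of them genes of the insulin list above, so the marker list adds no gene to it. Of 5 alpha cell markers 4 were marked. Gcg, which encodes glucagon (chr2:62482685-62485606), had a member with fold enrichments of 21.0 and 11.1, from 71 and 88 fragments, and H3K4me3 fold enrichments of 6.32 and 6.43. Its MafA summits lay at 109 and -313 bp from the start, that of replicate 2 outside the H3K4me3 region. With a 50% reciprocal overlap, or with 50% of the MafA region covered by H3K4me3, no alpha cell marker had a member. In these settings 2 and 3 beta cell markers had one. No delta or PP cell marker of 4 was marked, nor had any of the 8 acinar and duct or 9 endothelial, stromal and immune markers a member, 1 in each list being marked. Of 25 developmental genes of other tissues 4 were marked and none had a member.

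Genes of the secretory granule and exocytosis had members often and at ordinary strength. Of 23 marked genes 12 had one (52.2%), with a median fold enrichment of 3.89. The highest were Syt7, a calcium sensor of exocytosis, with 7.79 and 6.60, and Snap25, a membrane fusion protein, with 6.93 and 6.42. Slc18a1, a vesicular monoamine transporter, had 6.45 and 6.61, and Pcsk2, which cuts proinsulin, 5.198 and 5.56.

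Among the lists of AP-1 and immediate early, MAF and CNC family and antioxidant genes, the strongest member was at Fos. Of 15 AP-1 and immediate early genes 8 had a member (53.3%), with a median fold enrichment of 4.49. Fos (chr12:85471626-85475078) had 21.1 and 18.1, with 584 and 1186 fragments, the highest rank of all members by fragments, and Myc 9.20 and 9.06. Fosl2 had 4.26 and 5.50, and Ier3 4.39 and 4.81. In the MAF and CNC family 3 of 11 marked genes had one (27.3%), among them Bach1, a CNC repressor, with 6.46 and 3.56, and Nfe2l1, with 3.85 and 4.40. Of 14 marked antioxidant genes 6 had one (42.9%). After Srxn1 and Prdx1 came Txn1, thioredoxin, with 4.78 and 5.17, and Pgd, of the pentose phosphate pathway, with 4.05 and 4.70. Without MafA replicate 1, where counts rose over all genes, they were 5 for the MAF and CNC family and 11 for the antioxidant genes.

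Clock genes and genes of protein folding lay above the share of all marked genes. Of 18 marked clock genes 9 had a member (50%). Nr1d1, the repressor REV-ERB alpha, had 8.45 and 11.1, Hlf 5.06 and 6.97, Cry1 5.19 and 4.40, and Cry2 3.69 and 5.90. Of 27 marked genes of the unfolded protein response and folding in the endoplasmic reticulum 11 had one (40.7%). Sec61b, of the translocon, had 9.53 and 9.04, Atf6, a stress sensor, 7.38 and 9.24, Canx 5.57 and 4.98, and Hsp90b1 5.11 and 5.43.

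Housekeeping genes differed by group. Members were found at 12 of 30 spliceosome genes (40%), 9 of 29 translation factor genes (31.0%) and 18 of 79 marked ribosomal protein genes (22.8%). They were found at 5 of 30 marked proteasome genes (16.7%) and 4 of 39 marked genes of the respiratory chain and ATP synthase (10.3%), the lowest share of the lists with at least 5 marked genes. The strongest in these lists were Eif3a, with 12.5 and 16.0, Eif3d, with 13.5 and 12.0, Rpl32, with 11.2 and 10.3, and Psmc5, with 9.49 and 10.5. Srsf7 had 7.06 and 9.04 and U2af2 7.04 and 8.15. The respiratory chain genes had weaker members: Ndufs8 had 4.44 and 5.54, Ndufs3 3.32 and 3.61, Ndufa10 2.78 and 3.85 and Ndufv2 2.66 and 2.65. Without MafA replicate 1 the counts were 21 for the spliceosome, 16 for translation factors, 34 for ribosomal proteins, 15 for the proteasome and 14 for the respiratory chain. Counts rose over all protein-coding genes as well, and no share of marked genes is given for this setting.

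Of 31 marked genes of glycolysis and the citric acid cycle 13 had a member (41.9%), with Pkm at 12.3 and 8.77 and Pfkl at 5.07 and 4.56. The member at Pkm lay at the far end of the gene. Of 29 marked cell cycle genes 13 had one (44.8%), with Ccne1, cyclin E1, at 6.50 and 6.11 and Cdkn2b, a kinase inhibitor, at 5.85 and 5.64. Members were found at 4 of 15 marked genes of the MLL and other H3K4 methyltransferase complexes (26.7%), with Setd1a at 5.29 and 4.42. The member at Setd1a lay beyond the far end of the gene. This list's count was 7 without MafA replicate 1, where counts rose over all genes. Of 14 marked genes that beta cells are known to keep low, 4 had one (28.6%), with Tst at 4.40 and 4.49.

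**Figure D5:**
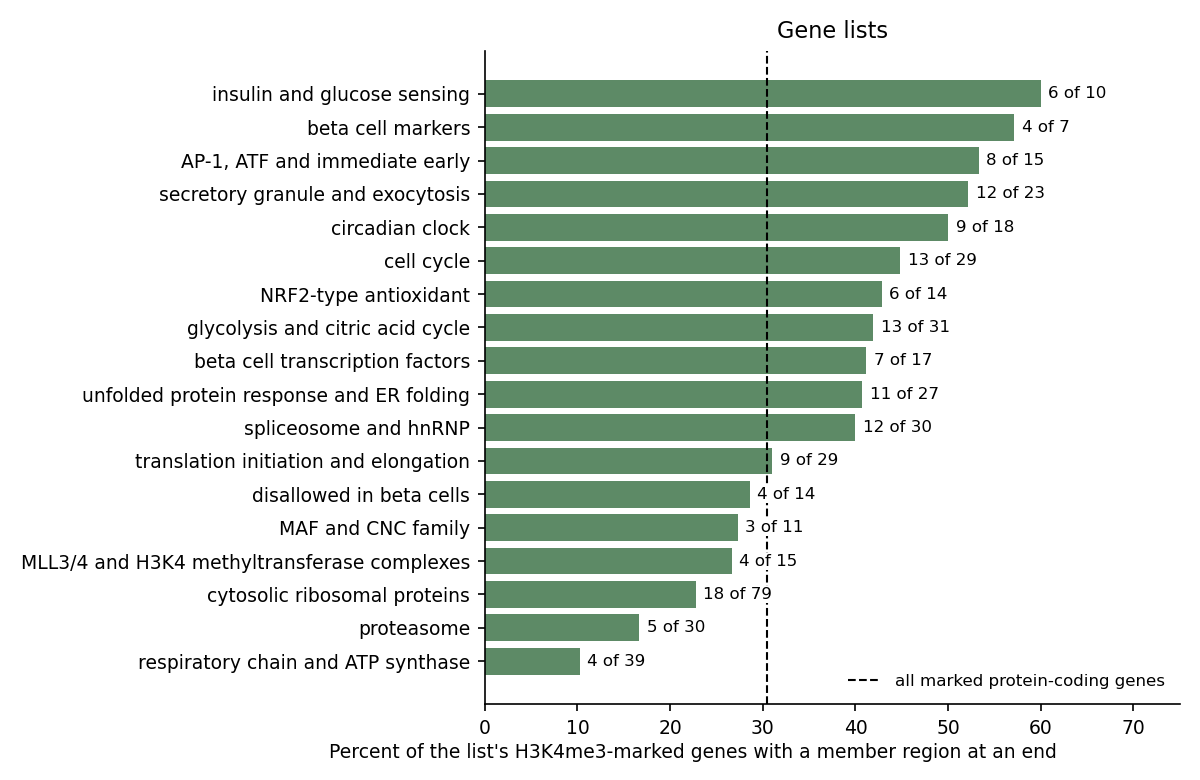
Percent of each list's H3K4me3-marked genes with a member at an end (x axis), for the 18 lists with at least 7 marked genes, with counts beside the bars; the dashed line is the 30.5% of all marked protein-coding genes. Insulin and glucose sensing (6 of 10) is highest and the respiratory chain (4 of 39) lowest.

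The members with the highest fold enrichment were not islet genes. The first was a region that overlapped Per2, a clock repressor (chr1:91454553-91460115), with 38.5 and 37.5. It was 5563 bp wide and reached an end of Per2, but its midpoint lay 2017 bp from that end. It was a member through the non-coding gene Gm35591. Distances to the nearest protein-coding gene are from region midpoints here. Tubb5, a beta tubulin (chr17:35838329-35839888), had 32.2 and 30.7, with summits at -243 and -278 bp from its start. Zfp566, a zinc finger gene (chr7:30090203-30091686), had 26.002 and 31.7, and Pcyox1l 27.1 and 27.4. A region at the non-coding gene 5830454E08Rik, 2352 bp from Rpl14 (chr9:120576440-120577570), had 30.3 and 26.5; the member at the end of Rpl14 itself had 4.88 and 8.06. A region at Gm12474, with Tent5c as its nearest protein-coding gene at 6420 bp (chr3:100494486-100496738), had 23.8 and 27.6. Tex26 had 22.3 and 24.1, Supt3 19.5 and 28.0, Aldh9a1 25.2 and 22.1, and Ankrd40 20.5 and 23.6. The member at Supt3 lay at the far end of the gene.

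Ranking by fragments gave largely other regions. Of the 10 highest by each ranking 2 were shared, Tubb5, with 573 and 1149 fragments, and Aldh9a1, with 395 and 768. Vldlr, a lipoprotein receptor (chr19:27216411-27217791), had 516 and 1235 fragments but a fold enrichment of only 4.11 and 4.96, with a local background of 125 and 185. Scrt1, a neuroendocrine repressor reached through the non-coding gene Gm46533, had 498 and 1004 fragments, Zfp963 491 and 1041, Kif12 441 and 879, and Dctn4 443 and 868. Zbtb6 had 415 and 879, and Cdk19 381 and 928.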

How the data were processed

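Peaks of 2 MafA and 2 H3K4me3 libraries were analysed. The authors called them per library with MACS2 on GRCm38 (mm10), per the submitters' processing notes; version, aligner, duplicate handling and control library are not given in the sources used here. Deposited fold enrichment is a linear ratio at the summit, and deposited −log10 p and q-values are the caller's own; the deposited score was not used. The lowest deposited −log10 q was 2.04 and 2.01 in the H3K4me3 lists.

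The lists held 16020 and 16904 H3K4me3 peaks and 33013 and 42747 MafA peaks, with median summit fragments of 759, 263, 25 and 46. Fragments were solved from fold enrichment, which uses a pseudocount of 1, and the Poisson p-value, with scaling factors of 0.415, 0.997, 1 and 0.746. Total depth is unknown. The strongest peak of each library gave a region's values. Gene ends and promoter windows came from RefSeq tables of GRCm38.p6 (49980 genes, 32851 windows), which give gene ends without strand. Of the windows, 1 per gene was searched. The libraries' median peak widths were compared by a two-sided exact permutation test. The members and gene lists were chosen with earlier results of these data known. Named genes were the 10 best members by the average of both replicates' fold enrichment ranks and the 10 best by fragments in the same way. They also included the 4 genes with the highest fold enrichment in each list, and all genes of the beta cell transcription factor and insulin lists. Dnaja1 and Shb were chosen from the member promoters by distance from the summit and fold enrichment. The other sequences were chosen from the named genes. Each choice was made after the values were seen. The alternatives tried were equal numbers of strongest peaks, a stricter −log10 q (5 or more), other overlaps and windows, protein-coding genes only, summits as positions, fragments, each library left out, and a replicate block. The fragment solver, written in Python 3.11.15 with numpy, pandas and scipy, was tested on simulated data. Intervals and counts cover counting error only. Some named genes are not reported here.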

Additional observations from a re-analysis of the deposited data

How the results depend on the processing

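Taking the 16020 strongest peaks of each list left 740 members, 695 protein-coding genes and 35 listed genes (145 in the main analysis). It gave median fold enrichments of 7.63 for MafA and 15.4 for H3K4me3, TGCTGAC in 8.37% of windows and a log2 ratio of -0.14 of member strength to that of marked regions away from gene ends, which was -0.30 in the main analysis. That ratio turned to 0.31 with fragments, and was -0.061 with −log10 q, -0.36 with 50% reciprocal overlap, -0.22 with 50% coverage by H3K4me3, -0.27 and -0.37 with windows of 500 bp and 2 kb; the ratio was added after seeing the data. A −log10 q of at least 5 gave a MafA fold enrichment of 4.32. TGCTGA in place of TGCTGAC was found in 17.9% of member windows, and TGCTGAC in 2.88% of the 150 bp before the start; a wider window could not be searched.

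Leaving out each library in turn gave 3766 members as 3780 to 6496, 3727 protein-coding genes as 3730 to 6347 and 145 listed genes as 145 to 234, the highest in each case without MafA replicate 1. MafA fold enrichment ran from 3.47 to 4.11, H3K4me3 fold enrichment from 16.0 to 17.5, TGCTGAC from 4.61% to 5.66% and the log2 ratio from -0.37 to -0.24. Of 276 recomputed list counts, 44 moved by over 1.5 times. The summit distance, width and upstream flank differences kept their sign in every alternative run.

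Replicate numbers are shared, so a replicate block was tried: the width difference stayed -1400 bp, with an exact permutation p of 0.5, the smallest possible. The distance and upstream flank differences stayed -69 bp and 25.1 points and are descriptions, since the rule used the MafA position. The replicates' deviations of MafA and H3K4me3 had r = 0.0329 over 6078 regions. This cannot show whether samples of the same number were prepared together, since a shared preparation need not move both targets at the same regions. With 2 libraries per group, the number of libraries limits all tests.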
